A study of Mus musculus with 64 samples.

Results

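The 37 genes described here are imprinted, which means that in at least some tissues they are read mainly from the chromosome inherited from one parent. They were chosen by name and are 37 of 55385 genes counted in mammary tumors of PyMT mice. Gene names in the table of summed counts matched 36 of them, and Zdbf2 was found by its identifier, ENSMUSG00000027520.15. The genes fall into 16 chromosomal clusters, 7 of which are represented by 1 gene. By general knowledge 16 are expressed from the maternal allele, 20 from the paternal allele and 1, Gnas, differs between its transcripts. The counts do not tell alleles apart, so the parental origin of the RNA was not measured.

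Imprinted genes lie in clusters that share a control region, where one parental copy carries DNA methylation set in the germ line. In some clusters the unmethylated copy is transcribed into a long noncoding RNA that silences the neighbouring genes on the same chromosome, as Kcnq1ot1 does for Cdkn1c. Many of these genes act on growth: Igf2 promotes it, Igf2r removes the IGF2 protein, Grb10 restrains insulin and IGF receptor signalling, and Cdkn1c encodes p57Kip2, an inhibitor of cyclin-dependent kinases.

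The tumors came from 4 female mice, with 2 tumors from each, and every mouse carried the polyomavirus middle T transgene (PyVT+). Mouse G144 was the heterozygous control (Abi1 fl/wt, Cre-, tumors 6 and 8) and G164 the heterozygous KO (fl/wt, Cre+, tumors 3 and 6). Mouse G184 was the homozygous control (fl/fl, Cre-, tumors 6 and 9) and G174 the homozygous KO (fl/fl, Cre+, tumors 1 and 6). Cre is driven by the MMTV promoter and was used to delete Abi1 in mammary epithelium. Abi1 was not measured by cell type, so its state in stroma, vessels and immune cells of a KO tumor is not known. The PyMT and floxed lines are C57BL6 and the Cre line is of mixed strain. Each genotype is 1 mouse, so genotype and mouse cannot be told apart, and all p-values measure only the spread between tumors of a mouse. By the study's pathology records G144 and G174 were younger than G164 and G184.

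Levels are CPM, gene counts scaled with TMM to a common library total, and totals ran from 50346075 to 69264893 gene counts per tumor. Abi1, the deleted gene, was at 111 and 130 CPM in G144, 63.1 and 66.7 in G164, 114 and 122 in G184, and 8.93 and 6.47 in G174, in the order the labels give. The 6 markers of mammary epithelium summed to 3447 to 4148 CPM in every tumor. Skeletal muscle markers summed to 221 CPM in tumor 8 of G144 and 273 CPM in tumor 3 of G164, against 1.07 to 2.19 CPM in the other 6 tumors. As these are bulk samples, fewer cells of a type and less RNA per cell cannot be told apart.

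Too low to test were 4 genes. Igf2 had 4 counts over all 8 tumors, Rtl1 had 8, Nap1l5 had 26 and Magel2 had 0. A count of 0 in a tumor allows up to 3 counts, and this limit covers counting error only. The other 33 passed the filter on low counts, 7 of them with a mean below 1 CPM. Levels can be set side by side between genes only per length of exon. On that scale Cd81, a tetraspanin of the cell surface, was the most abundant at 233 CPM per kb, followed by Gnas at 49.8, Igf2r at 47.6, Copg2 at 21.5 and Ube3a at 13.9 CPM per kb. The noncoding RNAs H19, Airn and Kcnq1ot1 stood at 6.77, 6.09 and 5.49 CPM per kb, and Cdkn1c at 4.47.

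The promoter stretches of 3 genes and the gap between 2 others are shown because they mark how the clusters are built. The promoters are RefSeq sequences of build GRCm38.p6, written 5′ to 3′ on the strand of the gene named first and cut to the part that no annotated exon covers. Capitals mark TGCCGC or its reverse complement GCGGCA, the hexamer that the protein ZFP57 binds when it is methylated at control regions.

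Mest, chr6:30737800-30738049, plus strand: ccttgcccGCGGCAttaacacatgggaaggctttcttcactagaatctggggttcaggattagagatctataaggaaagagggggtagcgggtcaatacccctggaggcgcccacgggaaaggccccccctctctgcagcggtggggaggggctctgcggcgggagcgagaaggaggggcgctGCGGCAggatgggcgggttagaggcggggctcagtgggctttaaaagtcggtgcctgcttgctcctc

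Meg3, chr12:109540746-109540995, plus strand: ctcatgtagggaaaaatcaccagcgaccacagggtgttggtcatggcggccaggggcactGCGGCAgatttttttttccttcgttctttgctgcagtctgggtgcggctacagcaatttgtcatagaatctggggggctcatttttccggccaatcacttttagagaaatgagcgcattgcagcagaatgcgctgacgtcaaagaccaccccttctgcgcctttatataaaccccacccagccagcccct

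Grb10, chr11:12037421-12037670, minus strand: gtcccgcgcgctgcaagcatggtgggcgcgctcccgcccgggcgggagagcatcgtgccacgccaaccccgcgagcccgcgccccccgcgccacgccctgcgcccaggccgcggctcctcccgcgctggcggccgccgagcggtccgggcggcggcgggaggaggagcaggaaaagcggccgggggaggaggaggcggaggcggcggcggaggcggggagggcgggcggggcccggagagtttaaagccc

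Peg3 and Usp29, chr7:6730432-6730577, minus strand: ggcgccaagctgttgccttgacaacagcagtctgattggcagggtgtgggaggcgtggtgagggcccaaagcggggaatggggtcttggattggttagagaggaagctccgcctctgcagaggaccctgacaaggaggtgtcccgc

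The Mest stretch holds the hexamer 2 times among 14 CpG dinucleotides, and the Meg3 stretch holds it 1 time among 10. The Grb10 stretch has 40 CpG and no match, while the full promoter window of 300 bases from which it was cut holds 1 match. The last stretch is the whole gap of 146 bases between Peg3 and Usp29, which run away from each other, and it was chosen after the values of these genes were seen. Of 48 promoter windows of 300 bases that belong to 31 of the genes, 12 (25.0%, in 11 genes) hold the hexamer on either strand, against 11.6% of all 32851 windows in the table. The windows of imprinted genes hold a median of 13.5 CpG and all windows 7, and a match is a description of the letters, not a bound site.

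In the heterozygous comparison 4 imprinted genes had an unadjusted p under 0.05, a level at which the share of all genes was not computed. Cdkn1c was the 1 imprinted gene called there, with a fall, and 0 rose. It is 1 of 33 tested genes (3.03%), where 4.01% of all 22187 tested genes were called by edgeR's quasi-likelihood test at a Benjamini-Hochberg adjusted p under 0.05, 2.72% higher and 1.29% lower. In the homozygous comparison Cdkn1c, Phlda2 and Sgce rose and Plagl1 and Grb10 fell, which is 15.2% of the 33 against 13.1% of all genes (5.44% higher and 7.7% lower). The homozygous change minus the heterozygous change, called the difference below, passed for 9 genes (27.3% against 25.1% of all genes, 12.0% higher and 13.1% lower). Higher on this contrast were 6, namely Cdkn1c, Phlda2, Peg10, Sgce, Mest and Igf2r, and 3 were lower, namely Plagl1, Grb10 and Nnat. Between the control mice, Cdkn1c, Phlda2, Peg10, Sgce and Mest were lower in G184 than in G144 (15.2% against 12.6% of all genes, 6.17% higher and 6.4% lower), although neither mouse lacks Abi1. Called in at least 1 of the 4 comparisons were 9 of 33 genes, or 27.3%, and the share of all genes was also 27.3%. The median size of the change, without its sign, was 0.31 log2 units over the imprinted genes and 0.32 over all genes in the heterozygous comparison, and 0.58 against 0.37 in the homozygous comparison.

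The 4 comparisons share mice, and the difference sets G144 and G174 against G164 and G184. Age runs along the same split, and age and this contrast cannot be told apart. Summed over 6 markers each, T cells stood at 2.77 to 5.21 CPM in the tumors of G144 and G174 and at 12.2 to 15.9 CPM in those of G164 and G184, and macrophages at 189 to 262 CPM and 348 to 469 CPM. The 15 mitosis genes summed to 1058 to 1959 CPM in G144 and G174 and to 525 to 1047 CPM in G164 and G184. Adipocyte markers reached 8.34 to 19.4 CPM in G144 and G174 and 19.6 to 67.8 CPM in G164 and G184. No gene of these 4 lists was at 0 in all tumors, and their part in the imprinted genes' differences was not tested.

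**Figure D1:**
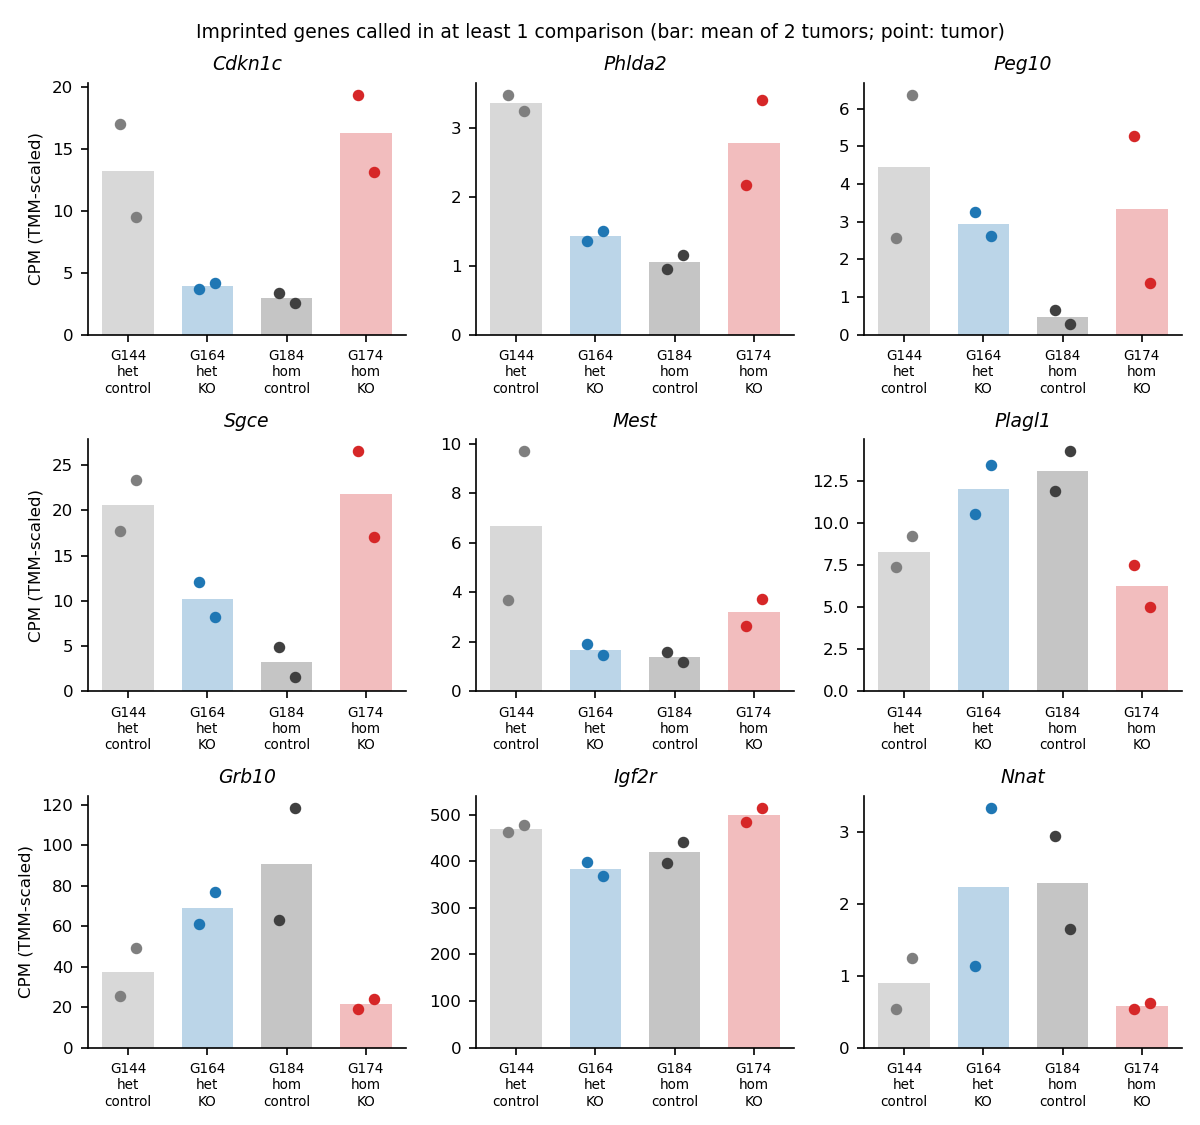
Level of the 9 imprinted genes called in at least 1 comparison, in CPM on a linear axis from 0, for the 4 mice. Points show single tumors and bars show mouse means. Cdkn1c spans 9.54 to 19.4 CPM in the tumors of G144 and G174 but 2.55 to 4.17 CPM in those of G164 and G184, and Grb10 lies the other way round.

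The Kcnq1ot1 cluster on chromosome 7 held the smallest adjusted p of the difference among these genes, that of Cdkn1c. Cdkn1c (ENSMUSG00000037664.13, chr7:143458339-143461050, minus strand) measured 17.0 and 9.54 CPM in G144 tumors 6 and 8, and 3.68 and 4.17 CPM in G164 tumors 3 and 6. It measured 3.36 and 2.55 CPM in G184 tumors 6 and 9, and 19.4 and 13.2 CPM in G174 tumors 1 and 6. All 4 tumors of G144 and G174 were above all 4 of G164 and G184. The heterozygous log2 fold change was −1.76 ± 0.33 (SE, adjusted p = 0.0394) and the homozygous one 2.46 ± 0.34 (adjusted p = 0.00851). The difference between them was 4.22 ± 0.47 (adjusted p = 0.00265), and the control mice differed by −2.17 ± 0.33 (adjusted p = 0.0124), so the control of the homozygous pair was 4.49-fold below that of the heterozygous pair.

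The difference for Cdkn1c stayed past the threshold when any of the 8 tumors was left out (adjusted p 0.00531 to 0.0149). The heterozygous call did so in only 2 of 8 such fits, those without a tumor of G174, and elsewhere its adjusted p reached 0.204. The homozygous call was lost only without G184 tumor 9 (adjusted p = 0.0621), and the control call without G144 tumor 6 or G184 tumor 9, with an adjusted p of up to 0.0948.

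Phlda2 (chr7:143501545-143503150), a pleckstrin-homology protein that limits growth of the placenta, is also read from the maternal copy. Slc22a18, which was not called, lies between Cdkn1c and Phlda2. Phlda2 was at 3.47 and 3.24 CPM in G144, 1.35 and 1.51 CPM in G164, 0.945 and 1.15 CPM in G184, and 2.16 and 3.40 CPM in G174. The 2 sides of the difference did not overlap here either. Its homozygous log2 fold change was 1.41 ± 0.28 (adjusted p = 0.0224), its heterozygous value −1.23 ± 0.27 missed the threshold (adjusted p = 0.0559), and the difference was 2.64 ± 0.39 (adjusted p = 0.00564). The control mice differed by −1.68 ± 0.28 (adjusted p = 0.0147). Leaving out 1 tumor kept the difference in all 8 fits. The homozygous call was lost without either tumor of G184 or without G174 tumor 6, and the control call without any 1 tumor of either control mouse (adjusted p up to 0.0907 and 0.0886).

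Kcnq1ot1, the paternal noncoding RNA of this cluster (chr7:143203458-143296549, minus strand), was at 512 and 424 CPM in G144, 539 and 475 CPM in G164, 664 and 398 CPM in G184, and 544 and 534 CPM in G174. The mice overlapped in each comparison. Its log2 fold change was 0.12 ± 0.23 in heterozygotes and 0.02 ± 0.23 in homozygotes (adjusted p = 0.795 and 0.96). The ratio of Kcnq1ot1 to Cdkn1c counts therefore ran from 28.1 to 198 over the 8 tumors, following Cdkn1c. The maternal genes Slc22a18, Ascl2 and Cd81 did not pass in any comparison. Cd81, the most abundant, ran from 493 to 863 CPM.

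**Figure D2:**
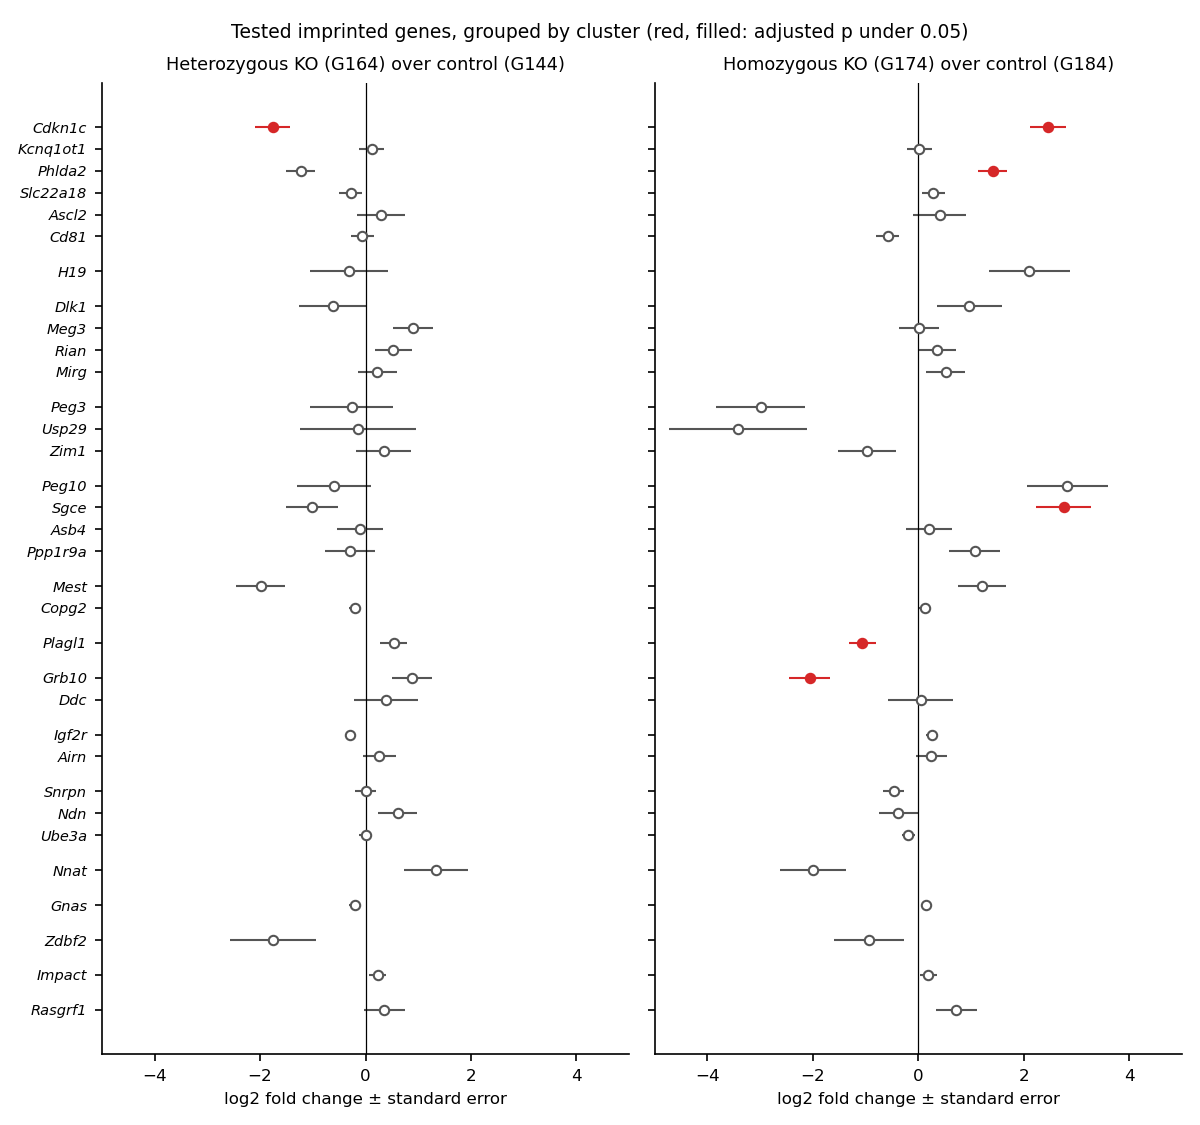
Log2 fold change with its standard error for the 33 tested imprinted genes, grouped by cluster, in the heterozygous (left) and homozygous (right) comparison. Filled red points passed the threshold: Cdkn1c alone on the left, and Cdkn1c, Phlda2, Sgce, Plagl1 and Grb10 on the right.

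H19 and Igf2 share enhancers and a control region on chromosome 7. Igf2, an insulin-like growth factor of fetal tissue, had 2 counts in G144 tumor 8, 2 in G164 tumor 6 and 0 in the other 6 tumors. In the annotation 62.8% of its exon length is shared with Gm49394 on the same strand, where reads that match both are dropped as ambiguous, so an absence of Igf2 RNA cannot be read from these counts. H19 (chr7:142575529-142578143, minus strand), a maternal noncoding RNA, was at 8.14 and 34.0 CPM in G144, 24.2 and 9.74 CPM in G164, 7.77 and 2.98 CPM in G184, and 21.3 and 25.0 CPM in G174. Both tumors of G174 were above both of G184, while the heterozygous mice overlapped. The homozygous log2 fold change of 2.10 ± 0.77 did not pass (adjusted p = 0.113), nor did the difference of 2.42 ± 1.05 (adjusted p = 0.134). In G144 and G164 the higher tumor was the one with skeletal muscle markers, tumor 8 and tumor 3. The part of muscle in these H19 levels was not tested, and G174 reached a like level with muscle markers at 1.07 and 1.94 CPM. H19 also carries a microRNA hairpin, whose mature arms are shown with the seed, bases 2 to 8, in capitals. Mature microRNAs were not measured.

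mmu-miR-675-5p: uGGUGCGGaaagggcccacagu

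mmu-miR-675-3p: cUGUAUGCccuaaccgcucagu

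The Dlk1-Meg3 cluster on chromosome 12 gave no call in any comparison among its 4 tested genes. Meg3 (chr12:109541001-109571726, plus strand), a maternal noncoding RNA, was at 6.02 and 7.60 CPM in G144, 15.2 and 10.2 CPM in G164, 10.2 and 5.31 CPM in G184, and 9.67 and 6.04 CPM in G174. Both tumors of G164 were above both of G144, but the log2 fold change of 0.90 ± 0.38 did not pass (adjusted p = 0.198), and the homozygous value was 0.02 ± 0.38. Rian, which hosts small nucleolar RNAs, and Mirg, which hosts microRNAs, lie downstream on the same strand. The 3 genes were highest in G164 tumor 3 and lowest in G184 tumor 9. Counts of Meg3 were 0.452 to 0.715 times those of Rian, and counts of Rian 7.22 to 10.5 times those of Mirg, while each gene's own level spanned 2.87 to 3.17-fold. Dlk1, the paternal gene that inhibits adipocyte differentiation, lay at 0.0777 to 0.381 CPM.

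**Figure D3:**
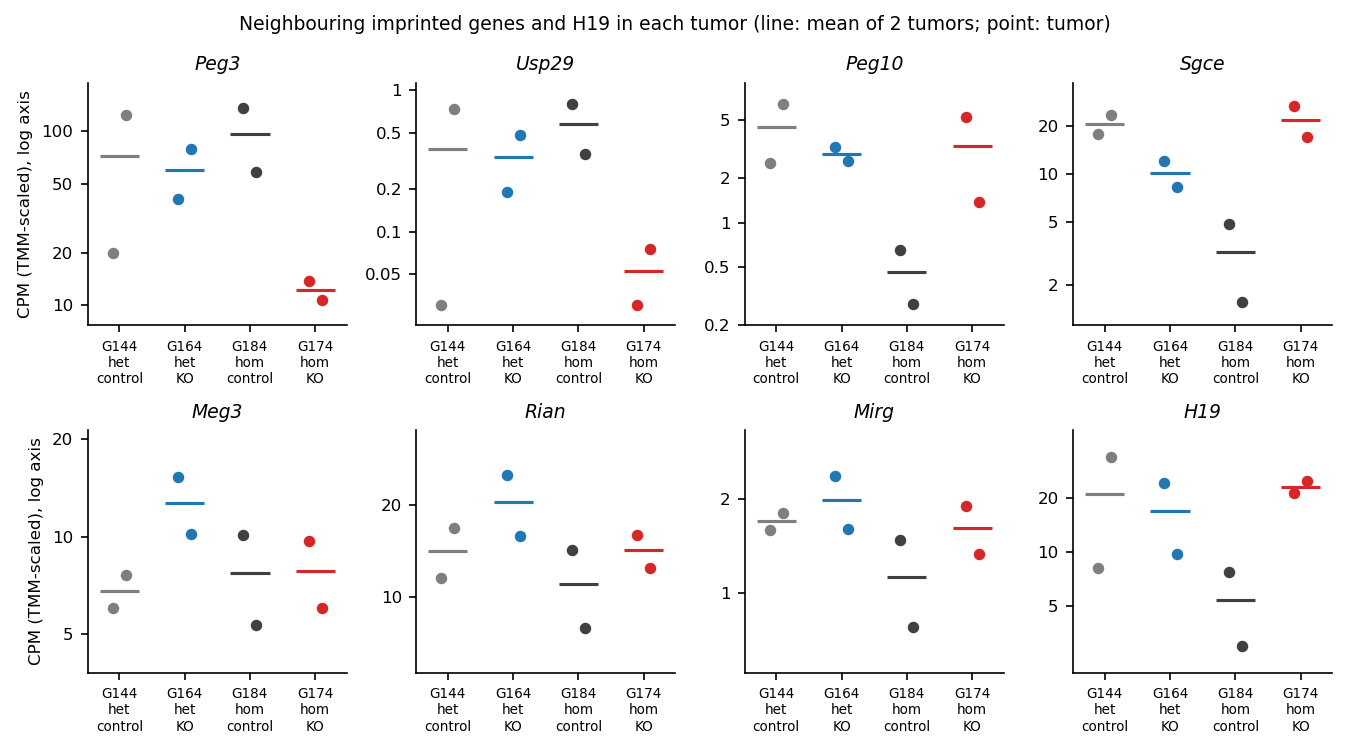
Level in CPM on log axes of 3 groups of neighbouring genes and of H19 in the 4 mice. Points show single tumors and lines show mouse means. Peg3 and Usp29 are low in G144 tumor 6 and both tumors of G174, Peg10 and Sgce are lowest in G184, and Meg3, Rian and Mirg share their highest and lowest tumor.

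Peg3, a paternal zinc-finger protein, and its head-to-head neighbour Usp29, a ubiquitin-specific protease, start on either side of the 146 bases shown. Peg3 was at 20.1 and 123 CPM in G144, 40.5 and 79.0 CPM in G164, 136 and 58.3 CPM in G184, and 13.7 and 10.7 CPM in G174. Usp29 was at 0.0305 and 0.735 CPM in G144, 0.191 and 0.481 CPM in G164, 0.804 and 0.357 CPM in G184, and 0.0305 and 0.0753 CPM in G174. Both genes were thus low in the same 3 tumors, 1 of them from a control mouse. For Usp29 these levels rest on 2 counts in G144 tumor 6 and on 2 and 5 counts in G174 tumors 1 and 6. The homozygous log2 fold change of Peg3 was −2.99 ± 0.85 and of Usp29 −3.41 ± 1.31, and neither passed (adjusted p = 0.0606 and 0.128). In G144 the tumors differed 6.15-fold in Peg3, which is not a difference of genotype. Zim1, the maternal neighbour, ran from 0.196 to 0.770 CPM and was not called.

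Sgce and Peg10 are a second paternal head-to-head pair, on chromosome 6, with 98 bases between them. Sgce encodes epsilon-sarcoglycan of the dystrophin-linked complex, and Peg10 derives from a retrotransposon and is needed in the placenta. Sgce was at 17.7 and 23.3 CPM in G144, 12.0 and 8.26 CPM in G164, 4.87 and 1.57 CPM in G184, and 26.5 and 17.1 CPM in G174. Peg10 was at 2.56 and 6.36 CPM in G144, 3.26 and 2.63 CPM in G164, 0.649 and 0.280 CPM in G184, and 5.27 and 1.39 CPM in G174. The G184 tumors were the 2 lowest of the 8 in both genes. Sgce rose in the homozygous comparison by 2.76 ± 0.52 (adjusted p = 0.0206), with a difference of 3.77 ± 0.72 (adjusted p = 0.0129) and a control difference of −2.67 ± 0.52 (adjusted p = 0.0235). For Peg10 the homozygous value of 2.83 ± 0.77 missed the threshold (adjusted p = 0.0538), while the difference of 3.43 ± 1.03 (adjusted p = 0.0494) and the control difference of −3.25 ± 0.77 (adjusted p = 0.0395) passed.

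Among fits without 1 tumor, the Peg10 difference passed only without G174 tumor 6, with an adjusted p of up to 0.147 in the other 7 fits. Its control difference passed only without a tumor of G174 (up to 0.209 otherwise). For Sgce the homozygous call was lost without G184 tumor 9 or G174 tumor 1 (adjusted p up to 0.0624), the difference without G164 tumor 6 (0.0562), and the control call without either tumor of G144 or G184 tumor 9 (up to 0.0946). The maternal genes of the cluster were not called. Ppp1r9a, which encodes the actin-binding protein neurabin, ran from 36.6 to 168 CPM with the lowest level in G184 tumor 9, and Asb4 from 0.171 to 0.394 CPM.

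Mest, a paternal gene of the hydrolase fold, was at 3.69 and 9.68 CPM in G144, 1.89 and 1.48 CPM in G164, 1.57 and 1.18 CPM in G184, and 2.65 and 3.72 CPM in G174. The tumors of G144 and G174 were all above those of G164 and G184. The difference was 3.20 ± 0.65 (adjusted p = 0.016) and the control difference −2.28 ± 0.47 (adjusted p = 0.0268), while the heterozygous value of −1.99 ± 0.47 (adjusted p = 0.0614) and the homozygous value of 1.21 ± 0.46 (adjusted p = 0.124) did not pass. Without G164 tumor 6 or G184 tumor 9 the difference was lost (adjusted p up to 0.0667). The control call was kept only without G144 tumor 6 or a tumor of G174, and elsewhere its adjusted p reached 0.163. Copg2, a coatomer subunit that overlaps the end of Mest on the other strand, stayed within 101 to 126 CPM and was not called.

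Plagl1 and Grb10 ran opposite to Cdkn1c. Plagl1 (Zac1), a paternal zinc-finger transcription factor, was at 7.37 and 9.25 CPM in G144, 10.6 and 13.5 CPM in G164, 11.9 and 14.3 CPM in G184, and 7.54 and 5.01 CPM in G174. It fell in the homozygous comparison by 1.06 on the log2 scale (SE 0.25, adjusted p = 0.0384), and the difference was −1.59 ± 0.36 (adjusted p = 0.0211). The homozygous call held in only 1 of the 8 fits without a tumor, that without G174 tumor 1, and its adjusted p reached 0.179 otherwise. The difference was lost without G144 tumor 6, G164 tumor 6 or G184 tumor 9 (up to 0.0809).

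Grb10, the maternal adaptor named above, was at 25.6 and 49.1 CPM in G144, 61.0 and 76.8 CPM in G164, 63.1 and 118 CPM in G184, and 19.3 and 24.2 CPM in G174. All tumors of G164 and G184 exceeded those of G144 and G174. It fell in the homozygous comparison by 2.06 on the log2 scale (SE 0.39, adjusted p = 0.0204), and the difference was −2.95 ± 0.54 (adjusted p = 0.0117). The heterozygous value was 0.88 ± 0.38 (adjusted p = 0.201). The difference held in all 8 fits without a tumor, and the homozygous call was lost without G184 tumor 9 or either tumor of G174 (adjusted p up to 0.0964). Ddc, its paternal neighbour, was below 0.2 CPM in every tumor.

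Igf2r, the maternal receptor, was at 462 and 477 CPM in G144, 398 and 369 CPM in G164, 397 and 442 CPM in G184, and 485 and 514 CPM in G174. The change was small, with a difference of 0.54 ± 0.15 (adjusted p = 0.0375) and no call in the heterozygous (−0.29 ± 0.10) or homozygous comparison (0.25 ± 0.10). The call on the difference was kept only without G174 tumor 1, with an adjusted p of up to 0.142 without another tumor. Airn, the paternal RNA that runs antisense through Igf2r, ranged from 12.2 to 30.4 CPM and was not called. Nnat, a paternal proteolipid of the endoplasmic reticulum, was at 0.533 and 1.25 CPM in G144, 1.14 and 3.34 CPM in G164, 2.95 and 1.65 CPM in G184, and 0.533 and 0.617 CPM in G174. Its difference of −3.33 ± 0.87 passed (adjusted p = 0.0331), although G144 tumor 8 was above G164 tumor 3. This call was kept only without G144 tumor 8 or G164 tumor 3, and its adjusted p reached 0.105 otherwise.

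Of the 33 tested genes, 8 (24.2%) had no overlap between the 4 tumors of G144 and G174 and the 4 of G164 and G184, and of all tested genes 26.5% had none. Cdkn1c, Phlda2, Sgce, Mest, Igf2r and Gnas were on the higher side in G144 and G174, and Plagl1 and Grb10 on the lower. Gnas, the stimulatory G protein subunit, ran only from 498 to 634 CPM and was not called (difference 0.36 ± 0.14, adjusted p = 0.104). Snrpn and Ube3a of the Snrpn cluster, Impact, and the noncoding Kcnq1ot1 each had a highest level 1.27 to 1.76-fold its lowest. Ndn, Zdbf2 and Rasgrf1 were not called either, at 0.617 to 1.92, 0.0321 to 0.212 and 6.43 to 28.1 CPM.

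The tumors of a mouse also differed from each other. Among the 19 with a mean of at least 5 CPM, the median difference between the tumors of a mouse, without its sign, was 0.34 log2 units in G144, 0.33 in G164, 0.42 in G184 and 0.23 in G174. Over all genes at that level, 12140 to 12142 by mouse, it was 0.16, 0.11, 0.15 and 0.19. Tumor 9 of G184 held the lowest level for 14 of the 33 genes, including H19, Meg3, Sgce, Peg10 and Ppp1r9a, while 18.96% of all genes were lowest there. These values are descriptions without a test, since genes of a cluster do not vary independently.

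Strand mattered for several of these genes, since many have a partner on the other strand. The libraries are stranded, and 4.76% to 6.80% of stranded gene counts lay on the forward strand. Gnas had 279931 counts on its own strand over the 8 tumors but only 3944 when strand was ignored. Gm20721, annotated opposite to it, held 276153 forward-strand counts, and reads over both genes are dropped as ambiguous in the unstranded column. Cdkn1c had 4651 counts with strand and 2620 without, with 30.6% of its exon length opposite to Gm44732, and Ube3a had 143848 and 95611. More counts on the opposite strand than on their own were found for 6 genes, among them Mest with 1581 against 2599, Nnat with 764 against 1888, and Rtl1 with 8 against 476. Mest lies opposite the end of Copg2 and Nnat inside Blcap. Unstranded counts gave the same numbers of called genes in the 4 comparisons as stranded counts, 1, 5, 9 and 5. Mest and Nnat, 2 called genes with a partner on the other strand, had smaller changes. For Mest the difference went from 3.20 to 1.83 (adjusted p = 0.0273), the heterozygous value from −1.99 to −0.95 and the control value from −2.28 to −1.32. For Nnat the difference went from −3.33 to −1.63 (adjusted p = 0.0182) and the homozygous value became −0.75. Genes without a call moved as well. For Gnas the difference went from 0.36 to 0.05 and the heterozygous value from −0.21 to 0.10. For Ddc the control value grew from −0.19 to −1.28 and the difference went from −0.34 to 0.69.

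**Figure D4:**
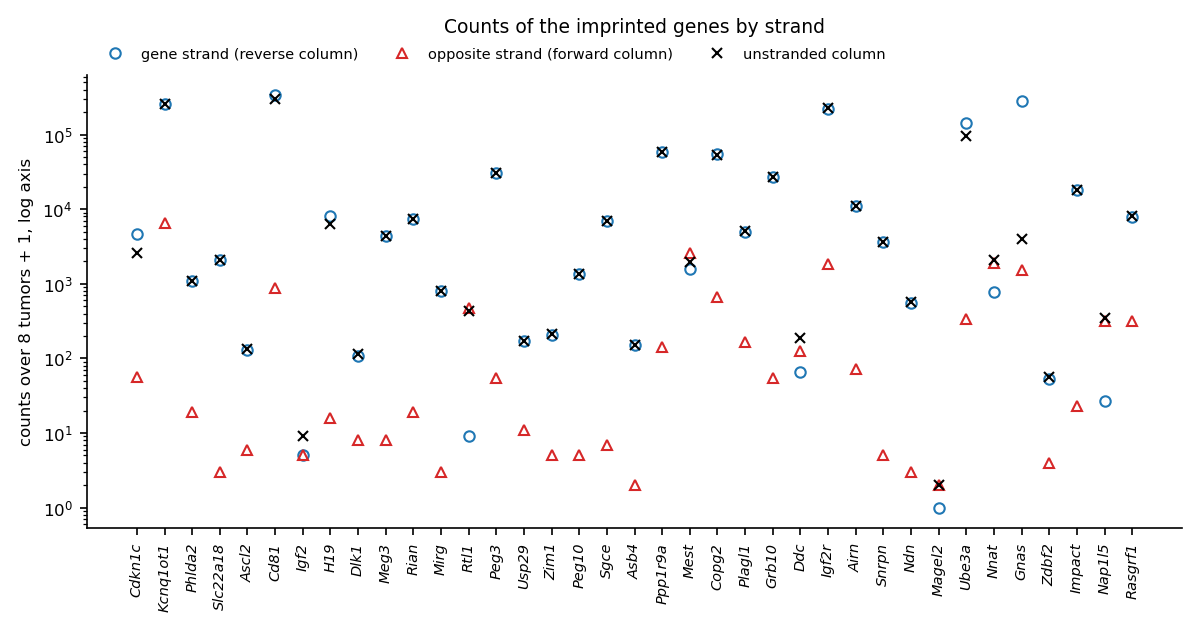
Counts of each of the 37 genes summed over the 8 tumors, plus 1, on a log axis. Circles are counts on the strand of the gene, triangles on the opposite strand and crosses without strand. Gnas falls from 279931 to 3944 when strand is ignored, and Rtl1, Nap1l5, Mest, Nnat, Ddc and Magel2 have triangles above circles.

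Rtl1, a paternal gene derived from a retrotransposon, lies on the minus strand of chromosome 12 opposite 6 microRNA hairpins of the plus strand. Whether its 476 opposite-strand counts come from their precursor was not tested. Mature arms of 2 of these hairpins are shown with the seed in capitals, chosen after the strand counts were seen. No seed is shared between them or with the arms of miR-675.

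mmu-miR-127-3p: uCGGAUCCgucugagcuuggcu

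mmu-miR-136-5p: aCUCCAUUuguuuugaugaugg

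Other imprinted genes outside the 37 were counted as a second list, of which 31 of 38 were tested. In the difference 1 was higher and 7 were lower, which is 25.8% of the list against 25.1% of all genes. Among the lower were Tspan32 (−3.51), Mkrn3 (−5.21), Gatm (−1.96) and Osbpl5 (−0.69, log2 scale), and the higher was Dhcr7 (0.60), which was named after its value was seen. In heterozygotes 2 were higher (6.45% against 4.01% of all genes), in homozygotes 5 were lower (16.1% against 13.1%), and 2 had a higher level in G184 than in G144 (6.45% against 12.6%). A further list held factors that maintain imprints together with other DNA methylation and chromatin genes, such as Dnmt3a, Tet1 and Eed. Of its 18 tested genes, 4 were higher and 1 was lower in the difference, or 27.8% against 25.1% of all genes. Uhrf1, which brings the methyltransferase to replicated DNA, had 2.25, the polycomb methyltransferase Ezh2 1.28, Smchd1 0.67 and the maintenance methyltransferase Dnmt1 0.49 on the log2 scale. The lower one was Zfp57, whose hexamer is marked above, at −1.53 (adjusted p = 0.0438), and it was named after its value was seen. Of these factors 2 were lower in heterozygotes, 2 higher in homozygotes and 2 lower in G184 than in G144, 11.1% each time against 4.01%, 13.1% and 12.6% of all genes.

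The IGF axis, into which Igf2, Igf2r and Grb10 feed, had 13 tested genes. In the difference 3 were lower, namely Igfbp5 (−2.16), Igf1r (−1.01) and Igf2bp3 (−2.78, log2 scale), which is 23.1% against 25.1% of all genes. Igf1r, the receptor, was the 1 higher in heterozygotes, 7.69% of the list against 4.01% of all genes. Igfbp5, a binding protein, was the 1 lower in homozygotes, 7.69% against 13.1% of all genes. Between the controls, 2 had a higher level in G184 (15.4% against 12.6% of all genes). Of the 15 mitosis genes, 12 were higher in the difference and 12 lower in G184 than in G144. That is 80.0% each time against 25.1% and 12.6% of all genes, and each missed the threshold in both KO comparisons. Their median difference was 1.65 log2 units, where that of all genes was −0.02. Cdkn1c was likewise higher in the difference and lower in G184 than in G144, and a link to these genes was not tested.

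Among the marker lists of 6 genes, all 6 T cell markers, 4 macrophage and 4 adipocyte markers were lower in the difference. Fibroblasts had 2 lower, Schwann cells and nerve 2 lower and 1 higher, and basal cells and endothelium 1 lower each. Mammary epithelium and pericytes had 1 higher each, and skeletal muscle had none. Of all genes 25.1% were called in this contrast.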

How the data were processed

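Total RNA of 8 tumors from 4 mice was depleted of ribosomal RNA and sequenced as stranded paired-end libraries on 4 lanes in each of 2 runs. The authors converted base calls with bcl2fastq, aligned to GRCm38/mm10 with STAR and deposited raw counts per gene and lane, with unstranded, forward-strand and reverse-strand columns, and sums per mouse. Which program versions and annotation release were used is not given in the sources used here. Reverse-strand counts were summed per tumor over lanes and runs, which are not replicates. Places come from GENCODE M21 and sequences from RefSeq. After filterByExpr by mouse and TMM scaling, edgeR 4.0.16 (R 4.3.3) fitted 1 quasi-likelihood model to the 8 tumors, with Benjamini-Hochberg adjustment over 22187 genes and a threshold of 0.05. DESeq2 1.42.0, other scalings, no filter, unstranded counts, single runs and leaving out each tumor were alternatives. On data simulated for the homozygous comparison, the fit called 41 of 100 genes changed 2-fold and 84 of 100 changed 4-fold. It also called 6 unchanged genes. Genes called in any comparison, and Cdkn1c, Kcnq1ot1, Igf2, H19 and Meg3, are given in every tumor. Outside this rule Peg3 and Usp29 are given in every tumor too, although neither was called. From each other list up to 4 genes with the smallest p in the difference are named. The imprinted genes and the other lists were chosen with earlier results of these data known.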

Additional observations from a re-analysis of the deposited data

Results flagged for a closer look

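For 9 imprinted genes the change from control to KO differed between the homozygous and the heterozygous pair by edgeR's test of that difference, homozygous minus heterozygous on the log2 scale. It was 4.22 for Cdkn1c (adjusted p = 0.00265), 2.64 for Phlda2 (0.00564), 3.43 for Peg10 (0.0494), 3.77 for Sgce (0.0129), 3.20 for Mest (0.016) and 0.54 for Igf2r (0.0375). For Plagl1 it was −1.59 (0.0211), for Grb10 −2.95 (0.0117) and for Nnat −3.33 (0.0331). These are 27.3% of 33 tested genes, against 25.1% of all genes, and 5 of the 9 also differed between the control mice.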

How the results depend on the processing

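Direction was compared across all alternatives only for the 9 genes called in a comparison. No called value of theirs changed direction. Among their other values, Peg10 in heterozygotes, −0.60 and not called, became 0.20 without G144 tumor 8. Genes outside these 9 also changed sign with unstranded counts, such as Gnas in heterozygotes (−0.21 to 0.10) and Ddc in the difference (−0.34 to 0.69), none called. The differences of Cdkn1c, Phlda2 and Grb10 passed under all 7 other settings and in all 8 fits without 1 tumor. In heterozygotes 1 imprinted gene was called (890 of all genes), against 4 (2614) with no filter, 2 (684) with run 190617 alone, 0 (703) with run 190618 alone, 3 (2661) with DESeq2 and 0 to 2 (16 to 1087) without 1 tumor. At an unadjusted p under 0.05 there were 4, and the share of all genes at that level was not computed. In homozygotes the count of 5 (2917 of all genes) became 13 (4575) with no filter, 10 (4423) with DESeq2 and 0 to 7 (532 to 2442) without 1 tumor, with 0 without G184 tumor 9. The difference gave 9 (5579), 7 to 12 (4876 to 6537) under other settings and 3 to 10 (2079 to 4817) without 1 tumor, the lowest without G164 tumor 6. Between controls the count of 5 (2787) became 8 (4158) with no filter and 0 to 5 (205 to 3164) without 1 tumor, again 0 without G184 tumor 9 (362). The differences of Peg10 and Igf2r were lost with scaling by library size, which moved the median difference of all genes from −0.02 to −0.12, that of Peg10 also with run 190618 alone and that of Igf2r with no filter. Run 190618 alone also lost the heterozygous call of Cdkn1c and the homozygous call of Plagl1. Apart from fewer genes or samples in a fit, the cause was not tested. No paired analysis was possible because the mice share only 1 tumor number. Depth limits the 11 genes below 1 CPM most.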
